A study of Mus musculus with 24 samples.

Results

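The genes described here are 37 genes of cell division, DNA replication and radial glia, taken by name from a table of 32310 genes and loci. All 37 were found under their own names. They comprise 11 genes of mitosis, 10 of DNA replication and nucleotide supply, 8 cyclins and kinases of G1 and of the entry into S phase, 3 inhibitors of cyclin-dependent kinases and 5 radial glia genes. The table covers 3 subtypes of cortical projection neuron that were isolated by FACS from CD1 mice, an outbred strain, at embryonic days 15, 16 and 18 (E15, E16, E18) and on postnatal day 1 (P1). Callosal neurons connect the hemispheres, subcerebral neurons project to brainstem and spinal cord, and corticothalamic neurons project to the thalamus. Each of the 12 combinations of subtype and stage was sequenced as 2 libraries, 24 in all, and is given as 1 pooled value in FPKM (fragment counts scaled by transcript length and by library size). The labels list no treatment and no genotype other than the strain, and they do not tell whether both libraries of a group had animals of their own. How the subtypes were marked for the sort is not given in the sources used here.

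A cell that divides builds cyclins and cyclin-dependent kinases in waves: D-type cyclins with Cdk4 or Cdk6 carry it through G1, E-type cyclins with Cdk2 start DNA synthesis, and A- and B-type cyclins with Cdk1 drive mitosis. The CIP/KIP and INK4 inhibitors hold these kinases back. In the embryonic cortex, radial glia are the dividing stem cells that line the ventricle, and they produce projection neurons directly or through intermediate progenitors. A projection neuron has left the cycle for good, although several cycle proteins, among them Cdk4 and p27, are also made in neurons.

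Promoter sequences are shown first. The mitotic and the replication genes differed in some of the short motifs near their starts, and a link of these motifs to the levels below was not tested. The CHR element and the CCAAT box are known from promoters of genes switched on in G2 and mitosis, and E2F elements from genes of DNA synthesis. RefSeq promoters (GRCm38.p6, from 250 bases before to 50 bases after each start) were matched by symbol for 31 of the 37 genes, and both strands were searched. A CHR element, spelled TTTGAA or TTCGAA, was present for 7 of 9 mitotic genes (Mki67, Top2a, Ccnb2, Cdk1, Aurka, Bub1 and Cdc20), 2 of 9 replication genes, 0 of 5 G1 genes, 0 of 3 inhibitors and 1 of 5 radial glia genes. Among all 27025 RefSeq genes with a promoter the share was 21.7%. An E2F element, spelled TTTGGCGC, TTTCCCGC, TTTCGCGC or TTTGCCGC, was present for 4 of 9 replication genes (Mcm3, Mcm5, Mcm6 and Mcm7), for 1 of 9 mitotic genes (Cdk1) and for 1 of 5 G1 genes (Cdk2), against 2.61% of all genes. CCAAT was present for 8 of 9 mitotic genes, 8 of 9 replication genes and 24 of all 31, against 41.1%. Below are the 160 bases before the start of 3 mitotic genes and 2 replication genes, 5′ to 3′ on the gene's strand, with matches to these motifs on either strand in capitals.
Top2a, chr11:99024190-99024349, minus strand: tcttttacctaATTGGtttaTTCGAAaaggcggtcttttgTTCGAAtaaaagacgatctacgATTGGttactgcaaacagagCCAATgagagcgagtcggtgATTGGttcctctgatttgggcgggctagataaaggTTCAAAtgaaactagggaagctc
Cdk1, chr10:69352913-69353072, minus strand: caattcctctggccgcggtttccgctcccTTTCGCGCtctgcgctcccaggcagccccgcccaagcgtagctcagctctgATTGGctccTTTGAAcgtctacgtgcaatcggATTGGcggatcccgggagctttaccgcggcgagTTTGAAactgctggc
Cdc20, chr4:118437344-118437503, minus strand: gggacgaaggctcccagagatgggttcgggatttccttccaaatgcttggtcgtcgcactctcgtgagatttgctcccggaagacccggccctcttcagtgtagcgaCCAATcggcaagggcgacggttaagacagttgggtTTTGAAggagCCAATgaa
Mcm5, chr8:75109349-75109508, plus strand: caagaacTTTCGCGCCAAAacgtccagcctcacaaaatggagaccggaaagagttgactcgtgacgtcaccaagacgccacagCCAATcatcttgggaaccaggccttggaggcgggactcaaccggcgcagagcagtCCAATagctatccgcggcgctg
Mcm6, chr1:128359706-128359865, minus strand: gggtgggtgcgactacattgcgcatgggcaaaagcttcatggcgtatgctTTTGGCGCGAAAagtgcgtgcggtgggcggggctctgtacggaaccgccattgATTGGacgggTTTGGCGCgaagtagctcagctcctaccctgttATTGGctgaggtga
The Top2a stretch holds 3 CHR elements and 4 CCAAT boxes and no E2F element of these spellings. Cdk1 has 2 CHR elements, 2 CCAAT boxes and 1 E2F element, and Cdc20 has 1 CHR element and 2 CCAAT boxes. Mcm5 has 2 overlapping E2F matches, and Mcm6 has 3, of which 2 overlap, with 2 CCAAT boxes each and no CHR element. Such matches describe letters only, and no binding was measured.

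Each gene was compared between stages and between subtypes. They were tested with limma on log2(FPKM + 1), with stage and subtype as additive terms, over the 13946 genes that reached 1 FPKM in 2 or more of the 12 columns. A gene could enter through its E15 and E16 columns alone, as Top2a, Pax6 and Sox2 did. Each difference below is on that log2 scale, ± the standard error (SE) of the fit, with a Benjamini-Hochberg adjusted p over all tested genes. Because a group has 1 value, a small p-value means that a difference was even across stages or subtypes, and the spread between libraries does not enter it, and differences at a single stage have no test. The 3 subtype comparisons share columns, so they are not independent of each other. Of the 37 genes, 27 were tested. The other 10 (Mki67, Ccnb1, Cdk1, Aurkb, Bub1, Birc5, Ccne2, Cdk2, Cdk6 and Cdkn2c) were too low, 6 of them below 1 FPKM in every column. No gene was listed at 0, and 17 were at or above 1 FPKM in every column. In the GENCODE vM21 annotation 12 of the 37 share exon bases with another gene, and since strand use in counting is not given, their reads cannot be told apart there.

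Subtype markers separated the callosal group from both others: Cux2 was higher, and Bcl11b, Tle4, Fezf2 and Foxp2 were lower. Markers of other cells were uneven between columns. The 11 microglial genes summed to 5.71 to 48.3 FPKM in the callosal columns, with the maximum at E16, against 4.23 to 7.49 FPKM in the subcerebral and 5.80 to 9.07 FPKM in the corticothalamic columns. Most of the subcerebral and corticothalamic sums came from Aif1, at 3.81 to 7.09 FPKM and 5.41 to 8.34 FPKM. No other microglial gene exceeded 0.190 FPKM in those columns. In callosal neurons at E15, Aif1 was at 1.88 FPKM of the 5.71 FPKM. Of 10 tested microglial genes, 9 were higher in callosal neurons against either other subtype, while Aif1 was lower than in corticothalamic neurons. The 7 interneuron genes summed to 56.0 FPKM in callosal neurons at E15 and to between 1.97 and 17.0 FPKM in the other 11 columns. The 7 astrocyte genes summed to 3.62 to 9.68 FPKM. Slc1a2 was at 0.864 to 7.04 FPKM, Aldoc at 0.968 to 5.36 FPKM and S100b at 0.141 to 0.570 FPKM. Aldh1l1 ran from 0.0490 FPKM in subcerebral neurons at E15 to 0.843 FPKM in corticothalamic neurons at P1. Gfap was at most 0.0932 FPKM, Aqp4 at most 0.0836 FPKM and Gjb6 at most 0.00741 FPKM. Vascular genes (11) summed to 4.97 to 10.9 FPKM and genes of the oligodendrocyte lineage (7) to 5.97 to 15.6 FPKM. None of the interneuron genes passed in any of the 4 comparisons in the limma fit (0 at an unadjusted p under 0.05), where 27.5% to 67.4% of all tested genes passed. A single high column adds to the residual of this additive fit, so the result does not show that their levels were even. From E15 to P1, 1 of 10 tested microglial genes (Aif1), 1 of 2 vascular genes (Col4a1) and 1 of 2 astrocyte genes (Slc1a2) rose, against 33.8% of all tested genes. The 8 genes of postmitotic neurons summed to 2764 to 6194 FPKM, and no gene of any of these lists was listed at 0 in every column. In such bulk samples, fewer cells of a type and less RNA per cell cannot be told apart.

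**Figure D1:**
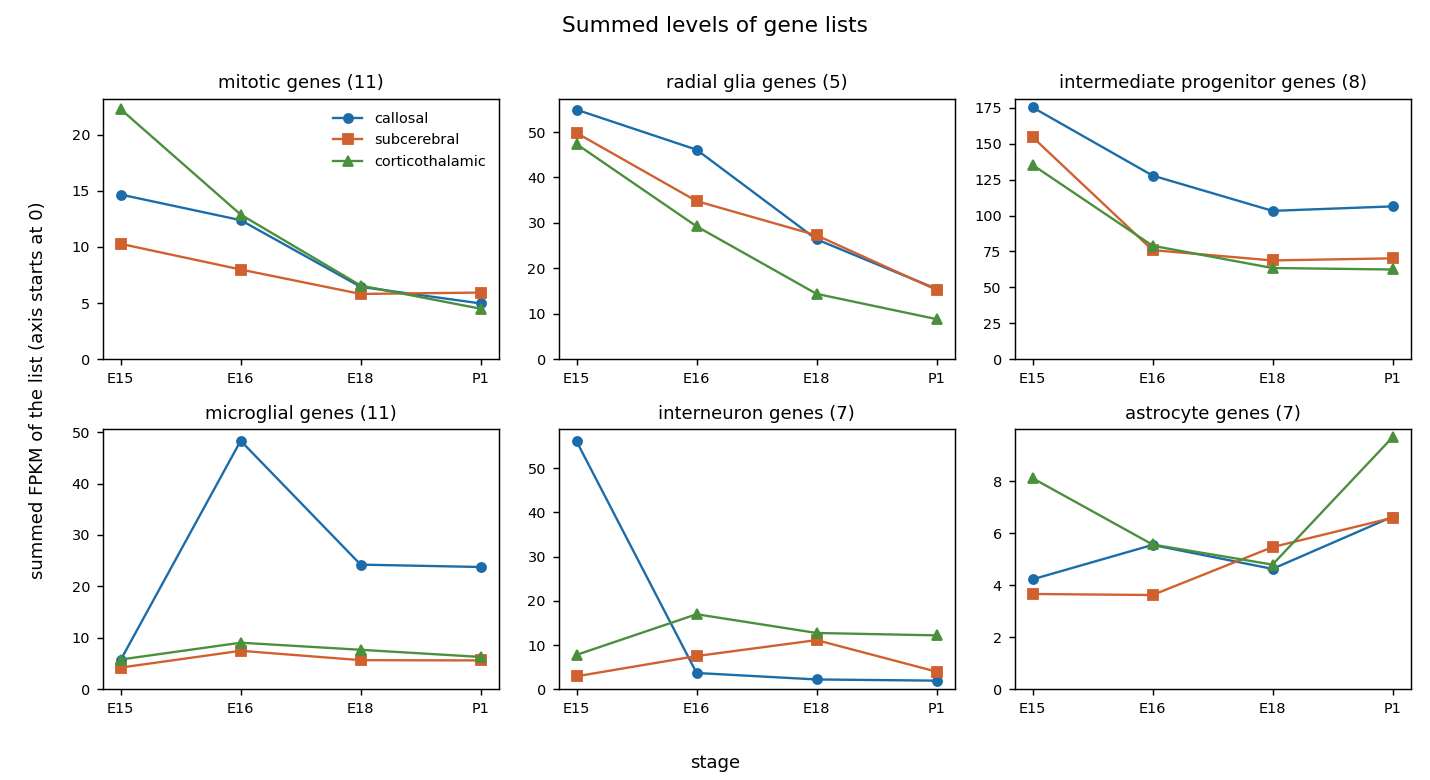
Summed FPKM of 6 gene lists by stage, 1 point per pooled column, for the 3 subtypes. The mitotic sum was highest at E15 in corticothalamic neurons (22.3 FPKM), the microglial sum at E16 in callosal neurons (48.3 FPKM) and the interneuron sum at E15 in callosal neurons (56.0 FPKM).

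Messages of mitosis were scarce at every stage, lowest in the later columns, and highest in corticothalamic neurons at E15. The 11 mitotic genes together summed to 14.7, 12.4, 6.44 and 4.96 FPKM from E15 to P1 in callosal neurons, to 10.3, 7.98, 5.81 and 5.93 FPKM in subcerebral neurons, and to 22.3, 12.9, 6.55 and 4.49 FPKM in corticothalamic neurons. At E15, 10 of the 11 followed the order corticothalamic, callosal, subcerebral from high to low, a pattern shown by 10.3% of the 17875 genes with a mean of at least 0.1 FPKM. The exception was Aurka. The same 10 genes had the highest of their 12 values in E15 corticothalamic neurons, against 8.41% of those genes. All 3 P1 values lay below all 3 E15 values for 8 of the 11, against 26.5%.

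Mki67 encodes Ki-67, which coats mitotic chromosomes and is the standard marker of cycling cells. Its level was 0.926, 0.900, 0.212 and 0.163 FPKM from E15 to P1 in callosal neurons, 0.446, 0.164, 0.119 and 0.0426 FPKM in subcerebral neurons, and 2.02, 0.957, 0.221 and 0.106 FPKM in corticothalamic neurons. It was lower at each later stage in every subtype, and subcerebral neurons had the lowest value at all 4 stages. The E15 value was 5.69 times the P1 value in callosal, 10.5 times in subcerebral and 19.1 times in corticothalamic neurons. Only 1 of its columns reached 1 FPKM, so it was tested only in a fit with no filter on low values, where P1 minus E15 was -0.88 ± 0.19 (limma adjusted p = 0.00601). In that fit 46.4% of 24570 genes passed for this comparison.

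Top2a, the topoisomerase that untangles sister chromatids, ran in parallel. It was at 1.52, 1.40, 0.392 and 0.194 FPKM in callosal, 0.766, 0.336, 0.190 and 0.0947 FPKM in subcerebral, and 3.50, 1.52, 0.495 and 0.184 FPKM in corticothalamic neurons. Every P1 value was below every E15 value, and Top2a fell by 1.23 ± 0.22 from E15 to P1 (limma adjusted p = 0.00132). It reached 1 FPKM only in callosal and corticothalamic neurons at E15 and E16, and was tested because of those columns. Over the stages it was lower in subcerebral than in corticothalamic neurons, by -0.68 ± 0.19 (limma adjusted p = 0.0345), a call lost in 5 of 7 alternative fits (adjusted p = 0.156 without E16).

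The B-type cyclins separated. Ccnb1 was below 1 FPKM in 11 of 12 columns: 0.695, 0.694, 0.239 and 0.108 FPKM in callosal, 0.361, 0.225, 0.166 and 0.144 FPKM in subcerebral, and 1.54, 0.652, 0.235 and 0.0968 FPKM in corticothalamic neurons. Ccnb2, whose product partners Cdk1 as well, was at 2.89, 2.40, 1.55 and 0.239 FPKM in callosal, 2.88, 2.51, 1.17 and 0.197 FPKM in subcerebral, and 3.87, 2.85, 1.73 and 0.434 FPKM in corticothalamic neurons. Ccnb2 fell by 1.70 ± 0.08 from E15 to P1 (limma adjusted p = 4.08e-06), and on the log2(FPKM + 1) scale its largest step down was from E18 to P1 in every subtype. For Mki67 and Top2a the largest step on that scale came earlier, from E15 to E16 or from E16 to E18. Ccna2, the cyclin of S phase and G2, varied least: 2.12, 2.34, 1.69 and 1.83 FPKM in callosal, 1.77, 1.97, 1.44 and 1.45 FPKM in subcerebral, and 3.26, 2.15, 1.70 and 1.89 FPKM in corticothalamic neurons. Its difference of -0.29 ± 0.12 from E15 to P1 did not pass (limma adjusted p = 0.0522). Of its exon bases, 510 are shared with Exosc9 on the other strand, which was at 10.04 to 18.6 FPKM.

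Cdk1 (the mitotic kinase), Aurkb (Aurora B, of the chromosomal passenger complex) and Bub1 (a spindle checkpoint kinase) stayed below 1 FPKM in all columns. Cdk1 was between 0.0202 FPKM in subcerebral neurons at P1 and 0.946 FPKM in corticothalamic neurons at E15, and its E15 value was 4.58, 10.4 and 11.2 times the P1 value in callosal, subcerebral and corticothalamic neurons. Aurkb had the same 2 extreme columns, at 0.0457 and 0.971 FPKM. Bub1 ranged from 0.0245 to 0.523 FPKM, and its subcerebral value at P1, 0.125 FPKM, lay above the callosal (0.0419 FPKM) and corticothalamic (0.0245 FPKM) ones. With no filter, P1 minus E15 was -0.49 ± 0.11 for Cdk1, -0.51 ± 0.12 for Aurkb, -0.31 ± 0.08 for Bub1 and -0.69 ± 0.17 for Ccnb1, all past the threshold, while Birc5, at -0.30 ± 0.19, did not pass (limma adjusted p = 0.242).

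Cdc20, Aurka and Birc5 did not share the low subcerebral level at later stages. Cdc20 encodes the activator of the anaphase-promoting complex. It was at 2.22, 1.59, 0.740 and 0.701 FPKM in callosal, 2.00, 1.43, 1.14 and 1.34 FPKM in subcerebral, and 2.66, 1.76, 0.695 and 0.560 FPKM in corticothalamic neurons, and it fell by 0.84 ± 0.16 (limma adjusted p = 0.00179). From E18 on, the subcerebral values were the highest of the 3. Cdc20 shares 53 exon bases with Elovl1 on the other strand, which was at 0.500 to 2.66 FPKM. Aurka, the centrosomal Aurora kinase, was at 2.32, 1.40, 0.960 and 1.00 FPKM in callosal, 1.10, 0.727, 0.794 and 1.97 FPKM in subcerebral, and 1.60, 0.992, 0.706 and 0.704 FPKM in corticothalamic neurons. Its P1 value was 1.79 times the E15 value in subcerebral neurons and below it in both others, and P1 minus E15 over the subtypes, -0.28 ± 0.22, did not pass (limma adjusted p = 0.282). Birc5 (survivin) was at 0.897, 0.659, 0.306 and 0.512 FPKM in callosal, 0.287, 0.373, 0.554 and 0.499 FPKM in subcerebral, and 1.36, 0.855, 0.343 and 0.352 FPKM in corticothalamic neurons.

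**Figure D2:**
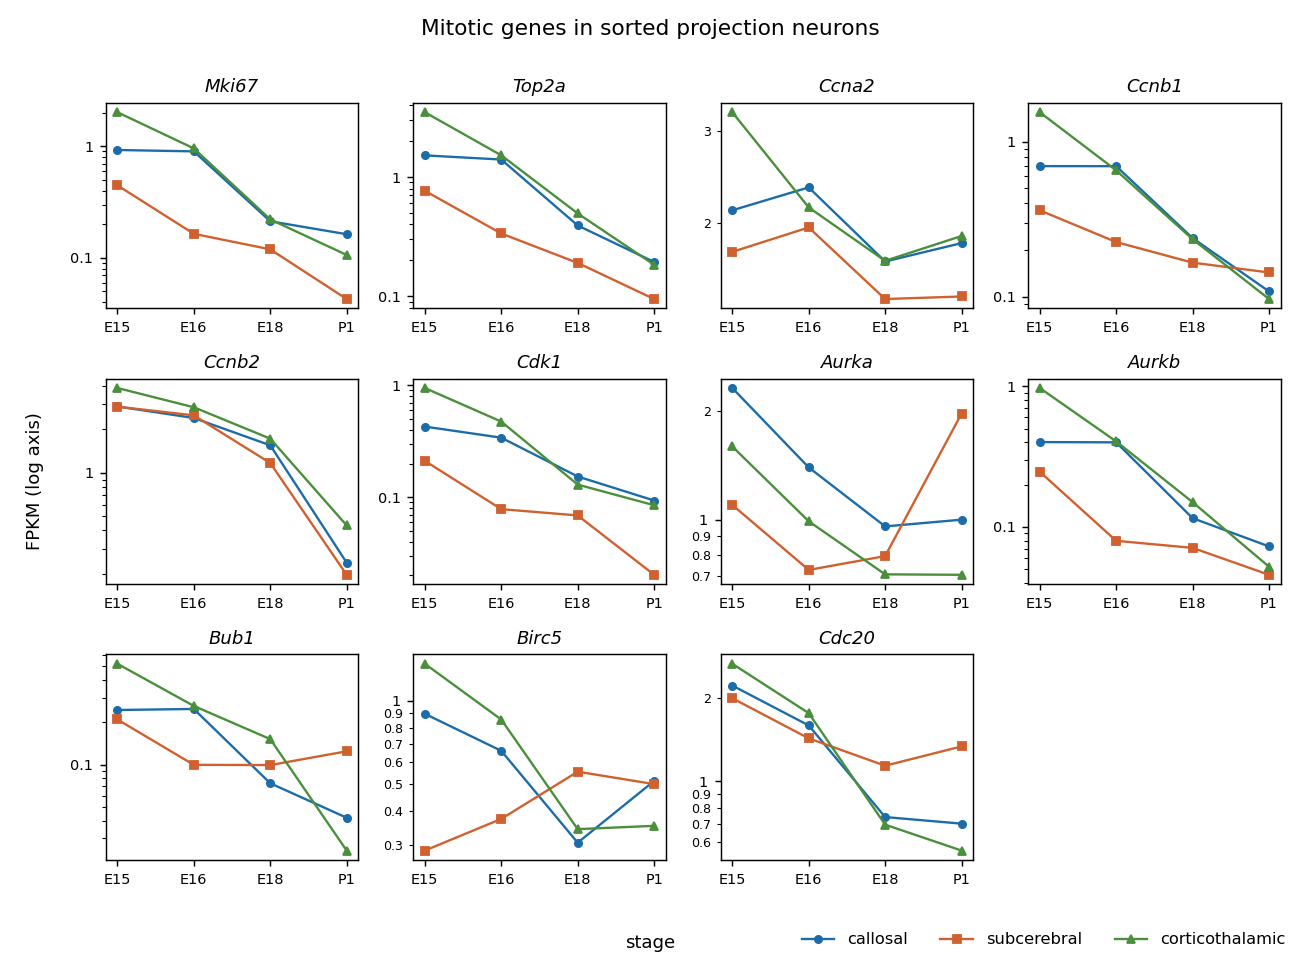
FPKM on log axes (scale set per panel) against stage for the 11 mitotic genes, 1 point per pooled column. Corticothalamic values at E15 were the highest of the 12 for every gene except Aurka, and for Ccnb1, Aurka, Bub1 and Cdc20 the subcerebral value at P1 lies above those of both other subtypes.

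Of the 5 tested mitotic genes, 3 fell from E15 to P1 and 0 rose, where 33.6% of all tested genes fell and 33.8% rose. None of the 5 passed between callosal and subcerebral neurons (0 at an unadjusted p under 0.05) or between callosal and corticothalamic neurons (1 at an unadjusted p under 0.05) in the limma fit. Of all tested genes, 29.3% and 31.3% passed there. Between subcerebral and corticothalamic neurons, 2 of the 5 (Top2a and Ccnb2) were lower in subcerebral neurons, against 12.8% of all tested genes. A list of 24 further spindle and kinetochore genes, 10 of them tested, had 5 that fell and 1 that rose from E15 to P1. Among them, Prc1 (a bundler of midzone microtubules) differed by -0.77 ± 0.10, Ube2c (which works with the anaphase-promoting complex) by -0.76 ± 0.21 and the mitotic kinase gene Plk1 by -0.67 ± 0.11. Mad2l1, of the spindle checkpoint, rose by 0.71 ± 0.16 (limma adjusted p = 0.00371). The median was -0.39 for the 10 and 0.00 for all tested genes.

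DNA replication genes were mostly lowest in subcerebral neurons, and 4 of the 10 passed between E15 and P1. All 10 were tested and summed to 79.3 to 132 FPKM, most of it from Pcna (mean 36.4 FPKM over the 12 columns) and Mcm7 (mean 32.0 FPKM). Mcm3 (mean 1.36 FPKM) and Mcm2 (mean 2.61 FPKM) were near the level of the mitotic genes Ccna2 (mean 1.97 FPKM) and Ccnb2 (mean 1.89 FPKM). From E15 to P1, 3 fell (Mcm7, Mcm4 and Rrm1), 1 rose (Pcna) and 6 did not pass, with a median difference of -0.12. The 3 of 10 that fell are near the 33.6% of all tested genes that fell. For 8 of the 10 the subcerebral value was the lowest of the 3 at each stage, against 7.44% of genes. The exceptions were Mcm5 and Rrm2.

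The MCM genes encode the 6 subunits of the replicative helicase, which act as one complex, but their messages differed in level and in course. Mcm7 was the highest on the FPKM scale: 46.3, 37.2, 27.6 and 18.6 FPKM in callosal, 45.9, 28.2, 14.9 and 9.91 FPKM in subcerebral, and 48.7, 44.8, 36.9 and 24.9 FPKM in corticothalamic neurons. The subtypes began at like values at E15 and spread apart later. Mcm7 fell by 1.44 ± 0.20 (limma adjusted p = 0.000366) and was lower in subcerebral than in corticothalamic neurons by -0.81 ± 0.18 (limma adjusted p = 0.0156), with adjusted p up to 0.127 without E16, E18 or P1. Mcm7 shares 321 exon bases with Ap4m1 and 64 with Cops6 on the other strand, and Mir93 and Mir25 lie on its own strand within its exon bases. Ap4m1 was at 9.32 to 19.6 FPKM and Cops6 at 27.9 to 80.2 FPKM.

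Mcm6 took the opposite course in 2 of 3 subtypes. It was at 8.22, 8.69, 8.67 and 9.47 FPKM in callosal, 5.59, 5.79, 5.70 and 3.83 FPKM in subcerebral, and 8.02, 8.85, 10.7 and 12.7 FPKM in corticothalamic neurons. Subcerebral values lay below all values of both other subtypes. Mcm6 was higher in callosal than in subcerebral neurons by 0.66 ± 0.15 (limma adjusted p = 0.0145) and lower in subcerebral than in corticothalamic neurons by -0.82 ± 0.15 (limma adjusted p = 0.00912). Both calls were lost without E16 and without E18, with adjusted p of at most 0.0883. Over the stages Mcm6 had no call (0.11 ± 0.18, limma adjusted p = 0.591).

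The other 4 MCM genes were at 0.616 to 6.50 FPKM. Mcm2 was at 4.10, 3.11, 1.99 and 2.89 FPKM in callosal, 2.50, 1.97, 1.58 and 2.41 FPKM in subcerebral, and 3.10, 2.26, 1.95 and 3.43 FPKM in corticothalamic neurons, with its lowest value at E18 in each. It was higher in callosal than in subcerebral neurons by 0.35 ± 0.10 (limma adjusted p = 0.0271), a call lost in 5 of 9 alternative fits, those without E15, E16, E18 or either the E15 or the E16 callosal column (adjusted p up to 0.144). Mcm4 ranged from 2.87 to 6.50 FPKM and fell by 0.53 ± 0.10 (limma adjusted p = 0.00160). It was lower in subcerebral than in corticothalamic neurons by -0.32 ± 0.09, as was Mcm3 by -0.48 ± 0.14, and neither call held without E16, E18 or P1. Mcm3 ranged from 0.616 FPKM in subcerebral neurons at P1 to 2.55 FPKM in corticothalamic neurons at E15. Mcm5, at 2.72 to 4.42 FPKM, passed in no comparison.

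Pcna, the sliding clamp of DNA polymerase, which also serves in DNA repair, rose. It was at 35.2, 38.4, 39.0 and 45.0 FPKM in callosal, 24.2, 31.4, 30.5 and 38.0 FPKM in subcerebral, and 29.9, 32.6, 37.6 and 54.8 FPKM in corticothalamic neurons. All 3 P1 values were above all 3 E15 values, a pattern of 26.7% of genes, and P1 minus E15 was 0.61 ± 0.10 (limma adjusted p = 0.000884). Pcna was lower in subcerebral neurons than in callosal (callosal minus subcerebral 0.35 ± 0.09) and corticothalamic neurons (subcerebral minus corticothalamic -0.29 ± 0.09), calls that were lost in 4 of 9 and 5 of 7 alternative fits. Those without E16 and without E18 were among them, with adjusted p up to 0.199.

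Rrm1 and Rrm2 encode the large and the small subunit of ribonucleotide reductase, which makes deoxynucleotides. Rrm2 was at 5.18, 6.999, 4.92 and 5.30 FPKM in callosal, 6.59, 12.9, 10.2 and 10.1 FPKM in subcerebral, and 11.4, 13.5, 14.1 and 15.6 FPKM in corticothalamic neurons. At every stage the order was corticothalamic, subcerebral, callosal. Rrm2 was lower in callosal than in corticothalamic neurons by -1.15 ± 0.12 (limma adjusted p = 0.000340), a call kept in all 9 alternative fits, and lower than in subcerebral neurons by -0.71 ± 0.12 (limma adjusted p = 0.00485; 0.0557 without E18). Rrm1 went the other way: it was at 8.80, 9.39, 8.50 and 8.22 FPKM in callosal, 6.91, 7.04, 5.37 and 4.92 FPKM in subcerebral, and 8.90, 8.53, 7.15 and 6.87 FPKM in corticothalamic neurons. Callosal minus subcerebral was 0.47 ± 0.07 for Rrm1 (limma adjusted p = 0.00250), kept in all 9 alternative fits. Tyms, the thymidylate synthase gene, was flat at 3.46 to 4.99 FPKM and passed nowhere.

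Of 36 further replication genes, 32 were tested, of which 13 fell from E15 to P1, 7 rose and 12 did not pass. The 62.5% that passed is near the 67.4% of all tested genes. Cdc7, the kinase that fires origins, differed by -1.09 ± 0.10 and Pold1, a polymerase delta subunit, by -0.84 ± 0.11. Rfc4, of the clamp loader, differed by -0.75 ± 0.11, while the licensing factor gene Cdt1 rose by 0.93 ± 0.11 (limma adjusted p = 0.000157). In the E2F and RB families, 7 of 11 tested genes fell and 1 rose, against 33.6% and 33.8% of all tested genes. E2f7 differed by -1.49 ± 0.25, Tfdp2 by -1.26 ± 0.10, E2f6 by -0.97 ± 0.09 and Rb1 by -0.75 ± 0.09. Between callosal and subcerebral neurons 5 of the 11 passed, and 3 in each of the other subtype comparisons, against 27.5% to 31.3% of all tested genes. E2f7 passed in all of them, at 15.4, 18.7, 7.56 and 3.17 FPKM from E15 to P1 in subcerebral neurons. It was at 2.84, 1.46, 0.773 and 0.573 FPKM in callosal and 4.43, 3.92, 2.46 and 1.35 FPKM in corticothalamic neurons.

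The G1 genes were dominated by Cdk4, and the 3 D-type cyclins differed from each other. Cdk4 was at 241, 179.5, 128 and 79.7 FPKM in callosal, 187, 136, 89.1 and 61.9 FPKM in subcerebral, and 143, 123, 101 and 57.0 FPKM in corticothalamic neurons. It had the highest mean of the 37 genes, 127 FPKM, and was lower at each later stage in every subtype. Cdk4 fell by 1.49 ± 0.10 from E15 to P1 (limma adjusted p = 8.41e-06). It was higher in callosal than in corticothalamic neurons by 0.53 ± 0.08 (limma adjusted p = 0.00252), kept in all 9 alternative fits. Callosal minus subcerebral was 0.41 ± 0.08 (limma adjusted p = 0.00947), with adjusted p of at most 0.0763 without E16 and without E18. Cdk4 shares 641 exon bases with Tspan31 on the other strand, which was at 21.7 to 34.8 FPKM.

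Ccnd2, a D-type cyclin of cortical progenitors, had the largest difference between subtypes among the 27 tested genes of the 37. It was at 3.82, 1.97, 0.711 and 0.499 FPKM in callosal, 7.28, 4.50, 7.70 and 9.03 FPKM in subcerebral, and 5.42, 3.60, 1.55 and 1.28 FPKM in corticothalamic neurons. The subcerebral value was the highest at each stage, and at P1 it was 18.1 times the callosal one. Callosal minus subcerebral was -1.69 ± 0.34 (limma adjusted p = 0.00920; 0.0808 without E18). Subcerebral minus corticothalamic was 1.13 ± 0.34 (limma adjusted p = 0.0418), lost in 5 of 7 alternative fits with adjusted p up to 0.218. P1 minus E15 over the subtypes was -0.97 ± 0.40 and did not pass (limma adjusted p = 0.0572). Ccnd2 shares 368 exon bases with 9330179D12Rik and 372 with Gm43126 on the other strand, and neither is named among the genes measured here.

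Ccnd3 was at 6.01, 5.83, 5.56 and 4.86 FPKM in callosal, 8.92, 12.03, 8.86 and 5.86 FPKM in subcerebral, and 9.70, 9.54, 8.83 and 7.71 FPKM in corticothalamic neurons, so the callosal value was the lowest at every stage. It was lower in callosal neurons than in corticothalamic (-0.60 ± 0.11, limma adjusted p = 0.00401) and subcerebral neurons (-0.56 ± 0.11, limma adjusted p = 0.00695), the latter not without E18 (0.0680). Ccnd1 passed in no comparison of subtypes and ran from 2.63 to 3.13 FPKM at E15 to 1.58 to 1.83 FPKM at P1. It fell by 0.52 ± 0.07 (limma adjusted p = 0.000298). Ccnd1 and Ccnd3 each share exon bases with a gene on the other strand (Lto1 for Ccnd1, Bysl for Ccnd3).

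The cyclins and kinase of the G1/S step were low. Ccne1 was at 0.595 to 1.25 FPKM and passed in no comparison. Ccne2 was below 1 FPKM throughout, at 0.493 to 0.755 FPKM in corticothalamic neurons and no higher than 0.537 FPKM in both others. With no filter it was lower in callosal than in corticothalamic neurons by -0.29 ± 0.06 (limma adjusted p = 0.0103), where 19.2% of genes passed. Ccne2 shares 609 exon bases with Ints8 on the other strand, which was at 4.05 to 16.8 FPKM. Cdk2 was at 0.822, 0.754, 0.369 and 0.229 FPKM in callosal, 0.668, 0.291, 0.215 and 0.0452 FPKM in subcerebral, and 1.35, 0.762, 0.429 and 0.232 FPKM in corticothalamic neurons, lower at each later stage. With no filter its P1 minus E15 difference was -0.73 ± 0.09 (limma adjusted p = 0.000335). Cdk6, the partner kinase of the D-type cyclins beside Cdk4, was at 0.0626 to 0.420 FPKM, and all 3 of its P1 values were above all 3 E15 values. With no filter it rose by 0.26 ± 0.09 (limma adjusted p = 0.0403).

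The CDK inhibitors moved in different directions. Cdkn1a encodes p21, which p53 induces. It was at 0.757, 1.18, 2.19 and 5.14 FPKM in callosal, 1.20, 0.701, 1.96 and 1.83 FPKM in subcerebral, and 2.48, 2.18, 7.52 and 23.9 FPKM in corticothalamic neurons. The P1 value was 6.80 times the E15 value in callosal, 1.53 times in subcerebral and 9.61 times in corticothalamic neurons, and P1 minus E15 was 1.67 ± 0.40 (limma adjusted p = 0.00605; 0.0648 without the callosal columns). Corticothalamic neurons had the highest value at every stage. Subcerebral minus corticothalamic was -1.56 ± 0.35 (limma adjusted p = 0.0167) and callosal minus corticothalamic -1.24 ± 0.35 (limma adjusted p = 0.0275), and both calls were lost without E16 and without E18, with adjusted p up to 0.137. The callosal one was also lost without the E16 callosal column (0.0521) and without the E15 callosal column (0.0720). Part of the Cdkn1a exon bases (273) are shared with another locus on the other strand.

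Cdkn1b encodes p27, which keeps newborn neurons out of the cycle and acts in their migration. It was the most abundant of the 3 inhibitors among the 37 genes: 59.0, 48.5, 40.0 and 30.1 FPKM in callosal, 42.9, 26.5, 19.9 and 14.03 FPKM in subcerebral, and 38.2, 37.7, 37.5 and 26.9 FPKM in corticothalamic neurons. The callosal value was the highest at each stage. Cdkn1b fell by 1.00 ± 0.18 from E15 to P1 (limma adjusted p = 0.00113) and was higher in callosal than in subcerebral neurons by 0.83 ± 0.15 (limma adjusted p = 0.00598), with adjusted p of at most 0.0587 without E16 and without E18. Cdkn2c, which encodes the INK4 inhibitor p18, was at 0.326, 0.286, 0.116 and 0.177 FPKM in callosal, 0.113, 0.0653, 0.101 and 0.0428 FPKM in subcerebral, and 0.658, 0.354, 0.0970 and 0.126 FPKM in corticothalamic neurons. Its no-filter difference between P1 and E15 did not pass (-0.27 ± 0.10, limma adjusted p = 0.0534). Of 5 further inhibitors, 2 (Cdkn1c and Cdkn2d) were tested, and neither passed from E15 to P1 (2 at an unadjusted p under 0.05). Cdkn1c, at 23.9 to 40.8 FPKM, was above Cdkn1b in subcerebral neurons from E16 on and in callosal neurons at P1. Against corticothalamic neurons, Cdkn1c was higher and Cdkn2d lower in callosal neurons, where 31.3% of all tested genes passed. Cdkn2d was also lower in callosal than in subcerebral neurons, where 29.3% passed.

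**Figure D3:**
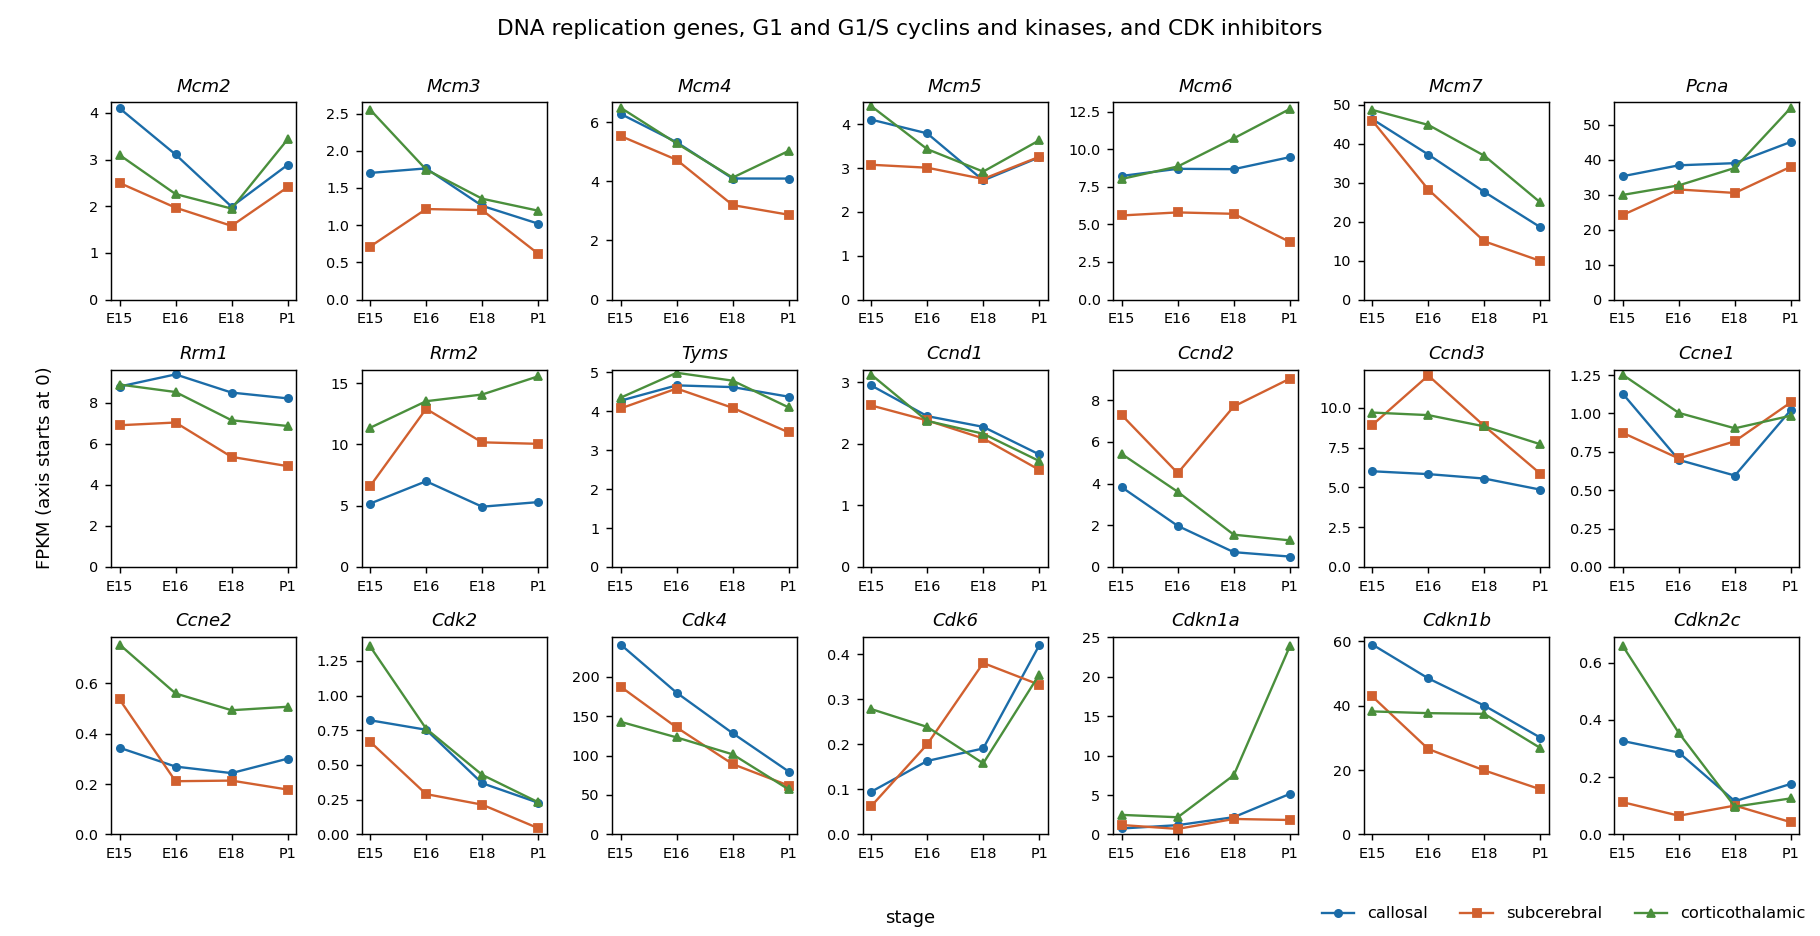
FPKM on linear axes that start at 0 (scale set per panel) against stage for the 10 replication genes, the 8 G1 and G1/S genes and the 3 inhibitors, 1 point per pooled column. Subcerebral neurons were lowest for most replication genes and highest for Ccnd2, and Cdkn1a reached 23.9 FPKM in corticothalamic neurons at P1.

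All 5 radial glia genes fell from E15 to P1, and for each of them all 3 P1 values lay below all 3 E15 values. Of all tested genes 33.6% fell, and 26.5% of genes showed that pattern. Vim and Nes encode intermediate filaments of radial glia. Vim was at 29.7, 18.5, 14.1 and 7.25 FPKM in callosal, 23.3, 23.3, 19.9 and 11.4 FPKM in subcerebral, and 28.1, 17.3, 7.58 and 3.86 FPKM in corticothalamic neurons, and fell by 1.81 ± 0.28 (limma adjusted p = 0.000532). Corticothalamic neurons held the least Vim at E16, E18 and P1, but no subtype comparison passed. Nes was at 13.3, 11.4, 6.84 and 4.72 FPKM in callosal, 10.4, 5.97, 2.82 and 1.43 FPKM in subcerebral, and 8.05, 5.35, 3.60 and 2.03 FPKM in corticothalamic neurons.

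Nes fell by 1.71 ± 0.16 (limma adjusted p = 3.72e-05), and the callosal value was the highest at all 4 stages. Callosal minus subcerebral was 0.86 ± 0.14 (limma adjusted p = 0.00343) and callosal minus corticothalamic 0.83 ± 0.14 (limma adjusted p = 0.00276). Both calls were kept in all 9 alternative fits. Without the E16 callosal column, where microglial genes were highest, the differences were 0.84 and 0.81. Without the E15 callosal column, where interneuron genes were highest, they were 0.97 and 0.94. In callosal neurons the microglial genes still summed to 24.2 FPKM at E18 and 23.8 FPKM at P1. The part of microglia and interneurons in the Nes values was not tested.

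Pax6 and Sox2 encode transcription factors of dividing radial glia. Pax6 was at 2.35, 2.24, 0.711 and 0.637 FPKM in callosal, 1.22, 0.643, 0.248 and 0.292 FPKM in subcerebral, and 4.39, 2.26, 0.606 and 0.517 FPKM in corticothalamic neurons, and Sox2 at 2.62, 1.09, 0.512 and 0.361 FPKM, 0.700, 0.458, 0.547 and 0.191 FPKM, and 3.03, 1.85, 0.908 and 0.623 FPKM. Both had the E15 order of the mitotic genes, corticothalamic over callosal over subcerebral. Pax6 fell by 1.21 ± 0.20 (limma adjusted p = 0.000866) and Sox2 by 1.08 ± 0.20 (limma adjusted p = 0.00147). Both reached 1 FPKM only at E15 and E16, so they were tested because of columns where they were high. Sox2 did not reach 1 FPKM in any subcerebral column. Subcerebral minus corticothalamic was -0.72 ± 0.18 for Pax6 (limma adjusted p = 0.0217) and -0.74 ± 0.17 for Sox2 (limma adjusted p = 0.0184), and neither held without E16 or without E18 (adjusted p up to 0.125), nor did that of Sox2 without P1 (0.0601). Pax6 was higher in callosal than in subcerebral neurons by 0.59 ± 0.18 (limma adjusted p = 0.0365), a call lost in 5 of 9 alternative fits, with adjusted p of 0.118 without the E16 callosal column.

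Slc1a3 encodes GLAST, a glutamate transporter of radial glia and astrocytes, and had the least even pattern. It was at 6.95, 12.9, 4.23 and 2.49 FPKM in callosal, 14.2, 4.47, 3.77 and 1.91 FPKM in subcerebral, and 3.74, 2.47, 1.68 and 1.78 FPKM in corticothalamic neurons. The 2 highest values were those of subcerebral neurons at E15 and callosal neurons at E16. Slc1a3 fell by 1.45 ± 0.38 (limma adjusted p = 0.00971; -0.98, adjusted p = 0.0886 without the subcerebral columns). Callosal minus corticothalamic was 1.01 ± 0.33 (limma adjusted p = 0.0494) and was lost in 6 of 9 alternative fits, among them the one without the E16 callosal column (0.66, adjusted p = 0.130). Microglial genes were highest in that column, and their part in the Slc1a3 value was not tested.

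**Figure D4:**
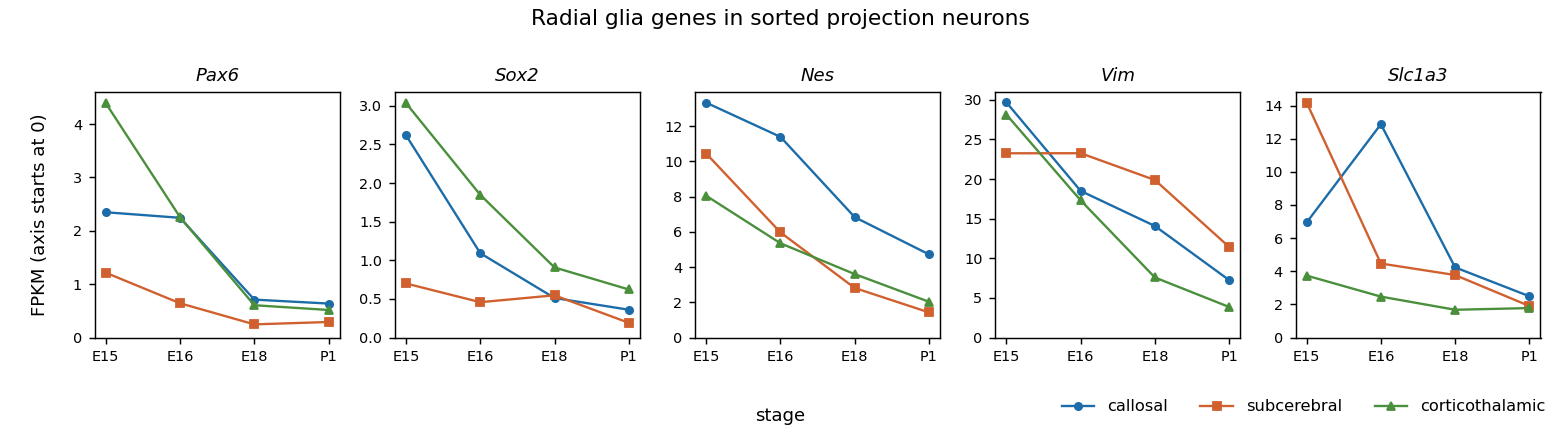
FPKM on linear axes that start at 0 against stage for the 5 radial glia genes, 1 point per pooled column. Every gene is lower at P1 than at E15 in each subtype; Nes is highest in callosal neurons throughout, and Slc1a3 peaks at 14.2 FPKM in subcerebral neurons at E15 and at 12.9 FPKM in callosal neurons at E16.

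A list of 16 other radial glia genes, 13 of them tested, had 7 that fell and 2 that rose from E15 to P1, where 33.6% of all tested genes fell and 33.8% rose. Ptprz1, a receptor phosphatase, differed by -2.19 ± 0.28 and Prom1 (prominin) by -1.29 ± 0.09. Ttyh1 rose by 1.06 ± 0.11 (limma adjusted p = 5.57e-05). The Notch target gene Hes1 passed with 1.85 ± 0.57 (limma adjusted p = 0.0186), but not evenly: it was higher at P1 in callosal (0.701 to 6.83 FPKM) and subcerebral neurons (0.366 to 13.5 FPKM) and slightly lower in corticothalamic neurons (1.07 to 0.975 FPKM). Of 8 genes of intermediate progenitors, 6 fell and 0 rose, against the same shares, with Neurog2 at -2.63 ± 0.21, Btg2 at -2.26 ± 0.36 and Insm1 at -2.26 ± 0.24. Between callosal and subcerebral neurons, 6 of the 13 radial glia genes were higher and 1 lower in callosal neurons, against 14.1% and 15.2% of all tested genes. Mfge8 differed there by 1.04 ± 0.13, Tnc by 1.03 ± 0.19, Fabp7 by 0.93 ± 0.20 and Prom1 by 0.73 ± 0.08. Of the intermediate progenitor genes, 5 of 8 were higher and 0 lower. Against corticothalamic neurons, 3 of the 13 radial glia genes were higher and 2 lower in callosal neurons (15.3% and 16% of all tested genes). In subcerebral neurons, 5 of the 13 (Fabp7, Mfge8, Tnc, Notch1 and Hes5) were lower than in corticothalamic neurons and 1 (Ptprz1) was higher. Of all tested genes, 12.8% and 14.7% were.

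Read over all 27 tested genes, 15 fell and 2 rose from E15 to P1, 17 in all. That share, 63.0%, was near the 67.4% of all tested genes that passed in this comparison. The split by direction was 15 to 2, where all genes split 4684 to 4716, and the median difference was -0.52 against 0.00. Among the 15, Top2a, Pax6 and Sox2 were tested only because of their E15 and E16 columns. The calls of 13 of the 17 genes held in all alternative fits, and those of Rrm1, Ccnd3, Cdkn1a and Slc1a3 did not. With no filter 25 of 37 passed, 22 lower and 3 higher, where 46.4% of 24570 genes passed in either direction. Counted without a test, 25 of the 37 were lower at P1 than at E15 in each subtype, against 34.6% of genes, and 12 were lower at every step in each subtype, against 7.57%. Those 12 were Mki67, Top2a, Ccnb1, Ccnb2, Cdk1, Aurkb, Mcm7, Ccnd1, Cdk2, Cdk4, Cdkn1b and Nes. A difference between stages cannot be told apart from one in collection or preparation shared by the columns of a stage.

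Between callosal and subcerebral neurons 11 of 27 passed (8 higher and 3 lower in callosal), against 29.3% of all tested genes, with a median of 0.24 against -0.01. Without E16 the count was 5 and without E18 it was 2, and of the 11 only Rrm1 and Nes held in all alternative fits. With no filter 10 of 37 passed, against 16.6%. Between callosal and corticothalamic neurons 6 passed, 3 in each direction, which is 22.2% against 31.3%. Here Rrm2, Ccnd3, Cdk4 and Nes held in all alternative fits.

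Between subcerebral and corticothalamic neurons 14 of 27 passed, 13 of them lower in subcerebral neurons and only Ccnd2 higher. Of all tested genes, 27.5% passed and 12.8% were lower. The 13 were 7 of the 10 replication genes, both tested inhibitors, Top2a, Ccnb2, Pax6 and Sox2, and the median difference was -0.26 against 0.00. None of the 14 calls held in all alternative fits. Without E16 the limma count was 0 (17 at an unadjusted p under 0.05), without E18 it was 0 (12 at an unadjusted p under 0.05), and without P1 it was 3. With no filter it was 10 of 37, against 13.6%. Over all tested genes the counts also dropped, from 3835 to 330 and 251 without E16 and E18. Of the further lists, 10 of 32 replication genes were lower and 2 higher in subcerebral neurons, and 3 of 10 spindle and kinetochore genes were lower and 0 higher.

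**Figure D5:**
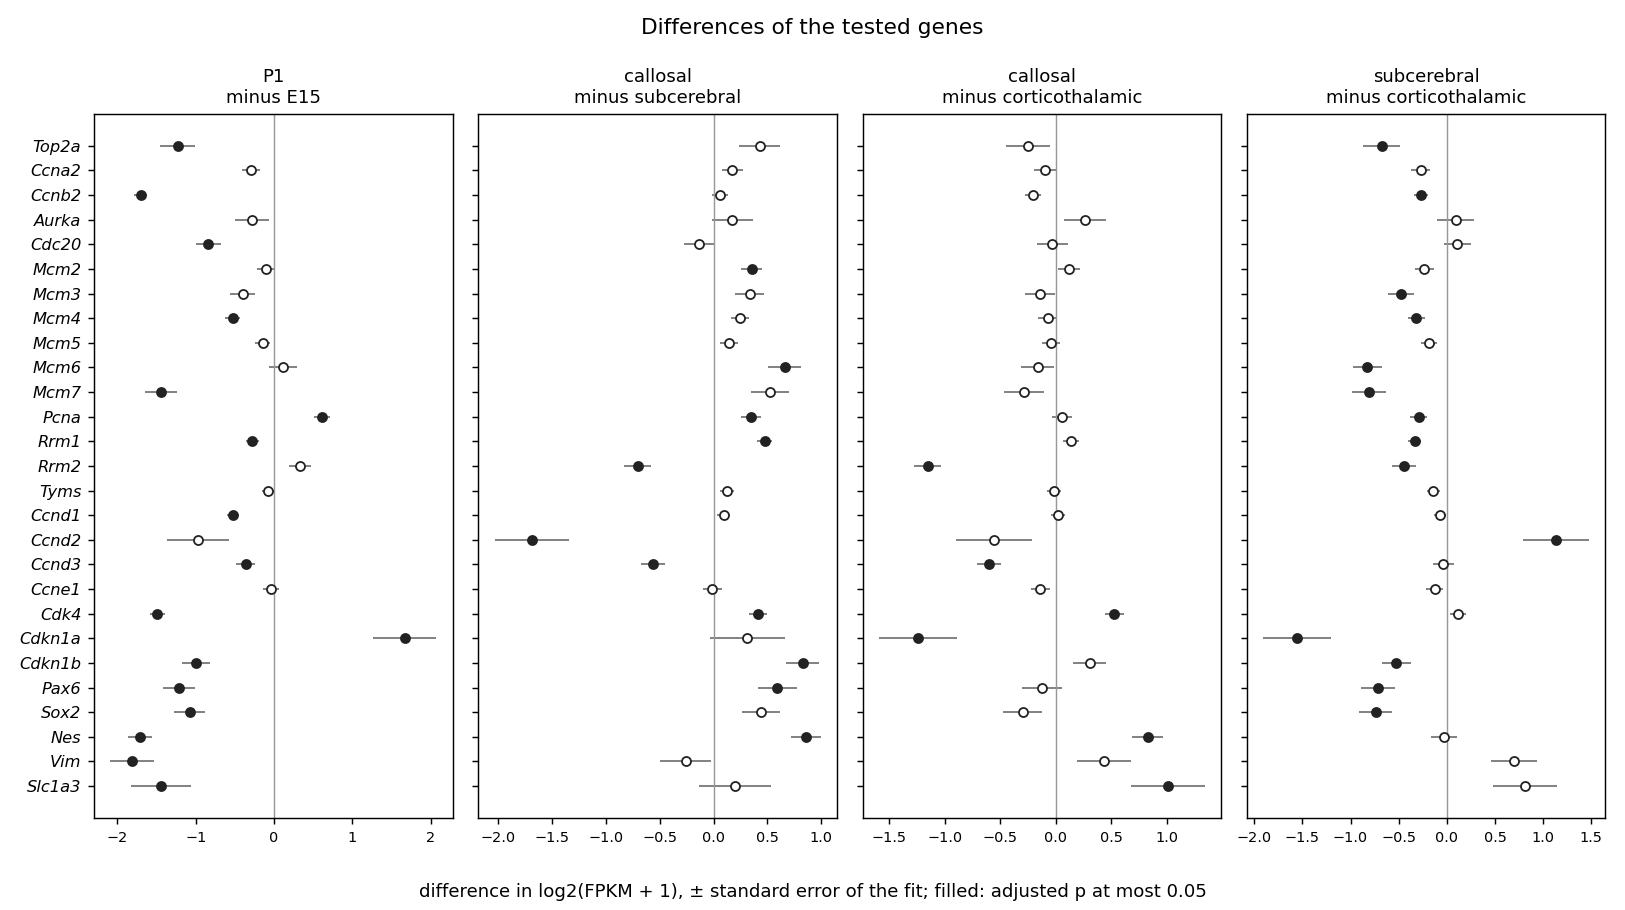
Differences in log2(FPKM + 1) of the 27 tested genes in 4 comparisons, with bars for the standard error of the fit and filled points for an adjusted p of at most 0.05. From E15 to P1 nearly all filled points lie below 0, with Cdkn1a and Pcna above it, and between subcerebral and corticothalamic neurons 13 of 14 filled points lie below 0.

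The genes were then compared by the shape of their profile over the 12 columns, on the log2(FPKM + 1) scale. Pearson correlations with Mki67 are given as a description, since the columns share stages and subtypes. The median r with Mki67 was 0.922 for the other 10 mitotic genes (from 0.485 for Aurka to 0.996 for Top2a), 0.576 for the replication genes, 0.524 for the G1 genes, 0.626 for the inhibitors and 0.659 for the radial glia genes. Within these lists, Pax6 (0.988), Cdk2 (0.963), Cdkn2c (0.958) and Sox2 (0.922) were close to Mki67. Pcna (-0.373), Cdk6 (-0.328), Cdkn1a (-0.315) and Rrm2 (-0.05) were not. Among all tested genes outside the 37, those most like Mki67 were Nr2e1 (r = 0.977), Eomes (0.971), Tpx2 (0.944), Celsr1 (0.942) and Ube2c (0.938). For Pax6 they were Eomes (0.970), Nr2e1 (0.960), Hes5 (0.960), Celsr1 (0.946) and Mfap4 (0.944). Eomes, which encodes the T-box factor of intermediate progenitors, was at 7.31 FPKM in corticothalamic, 4.84 FPKM in callosal and 1.11 FPKM in subcerebral neurons at E15, and at most 0.126 FPKM at P1.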

How the data were processed

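RNA from FACS-sorted neurons was measured by poly(A)-selected RNA-seq in 24 libraries (2 for each of 12 groups). The deposited table holds 12 columns of values read as FPKM, 1 per group, with column sums of 355965 to 473871. The unit is an inference: the header names none, and TopHat2 and Cufflinks with build mm9 are listed per the submitters' processing notes. Tool versions, annotation, strand use and how the authors combined both libraries were not given in the sources used here. Depth is unknown, so no counting interval is given.

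Genes that reached 1 FPKM in 2 or more columns were fitted with limma 3.58.1 (statmod 1.5.0, R 4.3.3; trend and robust moderation) on log2(FPKM + 1), pseudocount 1, with additive stage and subtype, 6 residual degrees of freedom and an adjusted p threshold of 0.05. This scale understates changes of low genes. Patterns were counted over genes with a mean of at least 0.1 FPKM. The 37 genes and the 159 genes of 13 further lists (subtype markers; spindle and kinetochore; replication; E2F and RB; CDK inhibitors; radial glia; intermediate progenitors; microglia; vascular cells; oligodendrocyte lineage; astrocytes; interneurons; postmitotic neurons) were chosen with earlier results of these data known. Differences with an SE are given for up to 4 genes per further list and comparison, those with the largest difference among genes past the threshold. Other genes of these lists are named for their levels or calls. The 5 tested genes most like Mki67 and Pax6 are named as well. Promoters come from RefSeq (GRCm38.p6) and exon overlaps from GENCODE vM21. Alternatives were another pseudocount (0.1), no filter, median-ratio scaling, and leaving out a stage, a subtype or, chosen after seeing the data, the E15 or the E16 callosal column.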

Additional observations from a re-analysis of the deposited data

Results flagged for a closer look

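Aurka, Mcm6 and Ccnd2 differed from E15 to P1 in opposite directions in different subtypes. All values are P1 minus E15 on the log2(FPKM + 1) scale, 1 pooled value per column, and whether the subtypes differ was not tested. Aurka was lower at P1 in callosal neurons (-0.73) and corticothalamic neurons (-0.61) and higher in subcerebral neurons (0.50). Mcm6 was higher at P1 in callosal (0.18) and corticothalamic neurons (0.60) and lower in subcerebral neurons (-0.45). Ccnd2 was lower at P1 in callosal (-1.69) and corticothalamic neurons (-1.50) and higher in subcerebral neurons (0.28).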

How the results depend on the processing

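No paired analysis was possible because each column pools both libraries of a group, and for the same reason no library could be left out. Another pseudocount, no filter and median-ratio scaling kept each count of genes and of members past the threshold within 1.5 times, and no member's call changed direction in any fit. Leaving out stages moved the counts, and the cause was not tested. Between callosal and subcerebral neurons, 4093 genes became 6179 when E15 was left out, 1117 for E16, 1016 for E18, 2230 for P1 and 2174 for the E16 callosal column alone; the 11 members became 5 without E16 and 2 without E18. Between callosal and corticothalamic neurons, 4361 genes became 1868 when E16 was left out, 2024 for E18 and 2812 for the E16 callosal column alone. Between subcerebral and corticothalamic neurons, 3835 genes became 6258 when E15 was left out, 330 for E16, 251 for E18 and 1051 for P1; the 14 members became 0 without E16, 0 without E18 and 3 without P1. The share of calls higher in subcerebral neurons was 53.4%, and 40.9% and 41.4% without E16 and E18. From E15 to P1 all counts stayed within 1.5 times. Unknown depth limits what the low mitotic values can show.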

Other observations

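The 8 genes of postmitotic neurons split from E15 to P1: 4 rose and 4 fell, where 33.8% and 33.6% of all tested genes did. Stmn2, which encodes a microtubule regulator of growing axons, rose by 1.72 ± 0.19 (limma adjusted p = 9.35e-05) and Rbfox3, which encodes NeuN, by 1.63 ± 0.18. Neurod6, a bHLH factor of young projection neurons, differed by -1.75 ± 0.19 and Neurod2 by -1.09 ± 0.27. In the oligodendrocyte lineage, Olig1 rose by 1.06 ± 0.16 (limma adjusted p = 0.000410), from at most 0.0467 FPKM at E15 to 1.47 FPKM in callosal, 0.446 FPKM in subcerebral and 1.69 FPKM in corticothalamic neurons at P1.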
